A study of Mus musculus with 4 samples.

Results

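Heterochromatin silencing factors are described here as 10 genes, chosen by symbol from a table of 13834 genes: Setdb1, Trim28, Ehmt1, Ehmt2, Suv39h1, Cbx1, Cbx3, Cbx5, Atrx and Smchd1. They were picked for their known roles, as H3K9 methyltransferases, HP1 proteins and partners of these, and the rule used no measured value. All 10 were in the table, and all 10 passed the filter on low counts.

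RNA was sequenced from peritoneal macrophages, phagocytes rinsed from the abdominal cavity of mice aged 10 weeks that had received thioglycolate broth, an irritant that draws leukocytes into the cavity, 3 days earlier. The 2 Dnmt1 fl/fl samples came from mice in which the Dnmt1 gene is flanked by loxP sites, the strain B6.129S4-Dnmt1tm2Jae/Mmucd, and GEO's genotype field gives these samples as wt. The 2 Dnmt1 KO samples came from mice with the same floxed allele and Cre recombinase driven by the LysM promoter, which is active in myeloid cells, so other cell types in the wash are not a target of the deletion. Whether the controls carried Cre, how many animals made up a sample and the sex of the mice are not given in the sources used here, so the p-values measure the spread between these samples, which may be technical. The question addressed here is whether transcripts of factors that could back up silencing differed when Dnmt1, the enzyme that copies DNA methylation after replication, was lost.

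Heterochromatin is compact, mostly silent chromatin in which histone H3 carries methyl groups on lysine 9 (H3K9). SET-domain methyltransferases write this mark, HP1 proteins bind it through a chromodomain and compact the chromatin, and remodelling proteins keep the packed state. DNA methylation and H3K9 methylation meet at many repeats, imprinted genes and the inactive X chromosome, where both can take part in silencing.

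The promoters of these 10 genes were looked up because DNA methylation acts on the dinucleotide CG, called CpG. RefSeq start sites on GRCm38.p6 gave 14 promoters for the 10 genes, each a window of 300 bases from 250 before to 50 after the start. The motif CG reads the same on both strands, so each match was counted once. Of all 32851 promoters in the table, 94.6% held at least 1 CpG, with a median of 7 and an upper quartile of 20 per window. Of the 14 promoters of the silencing factors, 10 held more than 20. The 14 windows held from 8 CpGs, in 1 of the Cbx5 windows, to 40, in Smchd1 and in 1 of the Ehmt2 windows. A sparse and a dense window are shown, each the only one of its gene, with each CG in capitals. The Atrx window (chrX:105929323-105929622, minus strand) held 11 CpGs at a GC content of 50.3%, and 41.4% of all promoters held as many. The Smchd1 window (chr17:71475294-71475593, minus strand) held 40 CpGs at a GC content of 74.0%, and 3.91% of all promoters held as many. The methylation of these windows was not measured, so the letters describe the DNA and not its state.
Atrx: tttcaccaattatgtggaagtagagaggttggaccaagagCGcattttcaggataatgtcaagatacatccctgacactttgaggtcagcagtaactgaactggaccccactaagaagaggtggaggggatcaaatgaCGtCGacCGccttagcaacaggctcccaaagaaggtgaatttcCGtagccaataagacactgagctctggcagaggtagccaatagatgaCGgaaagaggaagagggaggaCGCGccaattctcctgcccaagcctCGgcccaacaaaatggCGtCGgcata
Smchd1: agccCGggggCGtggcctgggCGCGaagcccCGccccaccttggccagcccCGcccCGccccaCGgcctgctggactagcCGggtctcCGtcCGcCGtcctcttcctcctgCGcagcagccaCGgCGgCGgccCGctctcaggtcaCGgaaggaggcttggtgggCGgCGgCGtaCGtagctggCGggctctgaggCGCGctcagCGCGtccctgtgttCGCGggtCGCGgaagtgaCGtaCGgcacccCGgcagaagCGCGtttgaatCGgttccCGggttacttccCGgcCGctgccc

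Before the silencing factors, the libraries themselves were compared. Dnmt1 itself stood at 86.6 and 67.0 CPM (counts per 1000000 in the library, with TMM scaling between libraries) in Dnmt1 fl/fl and at 37.0 and 42.7 CPM in Dnmt1 KO. Its log2 fold change, Dnmt1 KO over Dnmt1 fl/fl, was -0.95 ± 0.24 (SE), and the direction matched the labels, although the adjusted p was 1.00 (edgeR). Without Dnmt1 KO replicate 2 it was called, at -1.05 and an adjusted p of 0.0200 (edgeR), and without replicate 1 it stood at -0.85 and was not. Gene counts do not separate the deleted exons from the rest of the transcript. Totals ran from 20228071 to 24198943 estimated counts. All 8 macrophage markers were present, but their sum was 34589 and 35511 CPM in Dnmt1 fl/fl against 17906 and 21485 CPM in Dnmt1 KO, mostly through Lyz2, the gene whose promoter drives Cre. Without Lyz2 the other 7 markers summed to 5980 and 6002 CPM against 6555 and 5741 CPM. Dnmt1 KO replicate 1 stood apart from the other 3 libraries. Its 8 listed neutrophil markers summed to 882 CPM against 215 to 319 CPM, with S100a9 at 320 CPM against 5.55 to 60.5 CPM and Ly6g at 3.99 CPM against 0.0424 to 0.319 CPM. Camp, Ngp, Mpo and Elane are not in the table, which lists only genes above 0 in all 4 samples. Its 7 B cell markers summed to 133 CPM against 327 to 542 CPM, its 5 dendritic cell markers to 18.4 CPM against 32.1 to 43.4 CPM, its 8 mesothelial and fibroblast markers to 96.0 CPM against 25.6 to 49.6 CPM, and its 18 cell division genes to 537 CPM against 313 to 391 CPM, of which Pcna made up 248 CPM. Log2 fold changes of the 10 genes without this library are given with each gene.

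None of the 10 silencing factors was called different between the genotypes. Their fitted log2 fold changes, Dnmt1 KO over Dnmt1 fl/fl, ran from -0.21 for Smchd1 to 0.24 for Trim28. The median was -0.04, against 0.0046 over all 12542 genes tested. It turned to 0.0096 with the correction for transcript length applied to each library, and was -0.10 with library totals alone, against -0.06 over all genes, with 9 of the 10 below 0. By edgeR's quasi-likelihood test (two-sided, Benjamini-Hochberg adjustment over all genes tested), 0 of 10 had an adjusted p under 0.05, as did 0% of all genes, and 0 of 10 had an unadjusted p under 0.05, against 0.279% of all genes. In 0 of 10 did both Dnmt1 KO samples lie on one side of both Dnmt1 fl/fl samples, against 16.7% of all genes. For any one gene, 2 values against 2 leave p = 0.333 as the smallest that a two-sided exact permutation test can reach. Counts of these genes ran from 240 to 3937 a sample. Fitted values were above 0 for 4 genes (Trim28, Ehmt2, Suv39h1 and Cbx3) and below 0 for 6, where 50.9% and 49.1% of all genes lay. For all 10 the gap between the 2 Dnmt1 KO samples was wider than the fitted genotype difference, as for 84.3% of all genes. In bulk RNA, fewer cells of a type and less RNA per cell cannot be told apart.

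**Figure D1:**
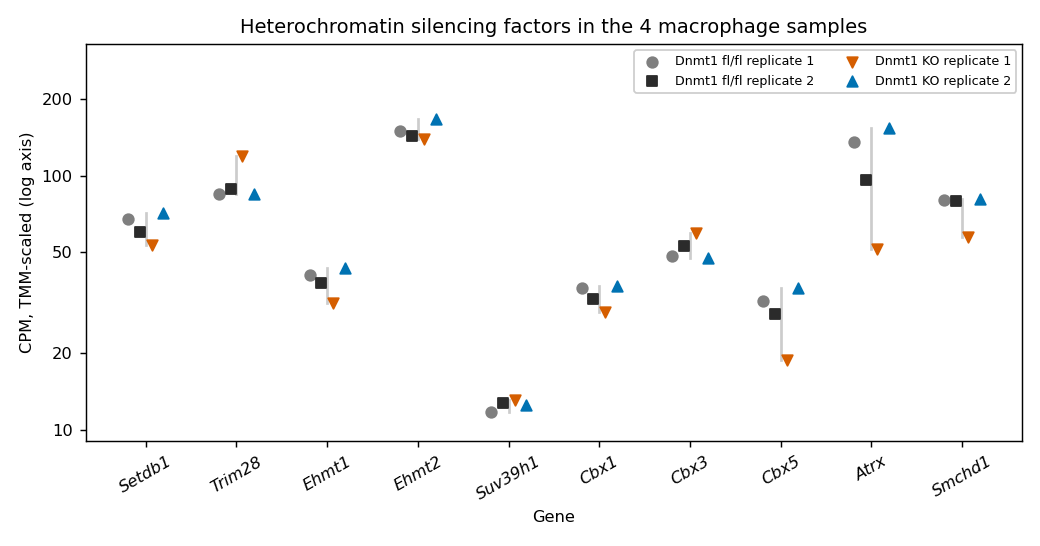
TMM-scaled CPM of the 10 silencing factors on a log axis, with 1 point for each of the 4 samples and a grey line over their range. In 0 of the 10 genes do the Dnmt1 KO points both lie on one side of the Dnmt1 fl/fl points, and the widest range is that of Atrx, from 51.3 to 154 CPM.

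Setdb1 and Trim28 form the arm that silences retroviral repeats. Trim28 (KAP1) is the scaffold that KRAB zinc finger proteins bring to DNA, and Setdb1 is the H3K9 methyltransferase it recruits. Trim28 (chr7:12999114-13031035, plus strand, GRCm38) stood at 84.6 and 88.2 CPM in Dnmt1 fl/fl and at 119 and 84.5 CPM in Dnmt1 KO. One Dnmt1 KO sample was therefore above both controls and the other at their lower edge. The log2 fold change was 0.24 ± 0.26 (SE), with a 95% interval from 0.760-fold to 1.83-fold. It was -0.03 without Dnmt1 KO replicate 1 and 0.47 without replicate 2, so its direction rested on replicate 1. Setdb1 (chr3:95323525-95357202, minus strand) stood at 67.6 and 59.9 CPM in Dnmt1 fl/fl and at 53.4 and 71.6 CPM in Dnmt1 KO. The 2 Dnmt1 KO samples bracketed the controls, and the log2 fold change was -0.03 ± 0.24, or 0.17 without replicate 1 and -0.25 without replicate 2. Per kilobase of transcript, the ratio of Trim28 to Setdb1 was 1.80 and 2.11 in Dnmt1 fl/fl and 3.21 and 1.69 in Dnmt1 KO, so Dnmt1 KO replicate 1 held the highest ratio and replicate 2 the lowest. Of 100-base stretches of the Setdb1 transcript, 2.85% also occur in other genes, and its counts were not whole in 3 samples, so its values carry that uncertainty.

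Ehmt1 (GLP) and Ehmt2 (G9a) act as a pair that adds the lower methylation states of H3K9, mostly outside constitutive heterochromatin. Ehmt2 (chr17:34898469-34914052, plus strand) had the highest level of the 10 per kilobase of transcript. Its values were 150 and 144 CPM in Dnmt1 fl/fl and 139 and 167 CPM in Dnmt1 KO. Ehmt1 (chr2:24789928-24919614, minus strand) stood at 40.8 and 37.7 CPM and at 31.5 and 43.2 CPM. For both genes Dnmt1 KO replicate 1 was the lowest and replicate 2 the highest of the 4 samples. Their log2 fold changes were 0.06 ± 0.22 for Ehmt2 and -0.07 ± 0.24 for Ehmt1. Without replicate 1 they were 0.18 and 0.13, and without replicate 2 they were -0.08 and -0.32. The ratio of Ehmt2 to Ehmt1 per kilobase was 5.43 and 5.64 in Dnmt1 fl/fl and 6.53 and 5.71 in Dnmt1 KO. Both Dnmt1 KO samples were thus above the controls in this ratio, one of them only just. The ratios of Trim28 to Setdb1 and of Atrx to Trim28 did not separate the genotypes. No share over other pairs of genes was taken, and the ratio compares transcripts of 4026 and 5953 bases.

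Suv39h1, which writes H3K9 trimethylation at pericentric heterochromatin, was the steadiest of the 10 between the Dnmt1 KO replicates before correction for transcript length. After it, their log2 difference was -0.067 for Suv39h1 and 0.0079 for Smchd1. Its values (chrX:8061171-8074760, minus strand) were 11.7 and 12.7 CPM in Dnmt1 fl/fl and 13.1 and 12.5 CPM in Dnmt1 KO. These rest on 240 to 319 counts a sample, the fewest of the 10, where counting error alone gives a coefficient of variation of up to 6.45%. The 4 samples interleaved, and the log2 fold change was 0.07 ± 0.25, with a 95% interval from 0.681-fold to 1.61-fold. It was 0.03 without Dnmt1 KO replicate 1 and 0.10 without replicate 2, the same direction in both.

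Cbx1, Cbx3 and Cbx5 encode HP1β, HP1γ and HP1α, the readers of methylated H3K9. Cbx5 (chr15:103191544-103239816, minus strand) stood at 32.2 and 28.6 CPM in Dnmt1 fl/fl and at 18.8 and 36.3 CPM in Dnmt1 KO. Cbx1 (chr11:96789127-96808640, plus strand) stood at 36.1 and 32.6 CPM and at 29.0 and 36.9 CPM. Both had the controls between the 2 Dnmt1 KO samples, with replicate 1 low. Cbx3 (chr6:51470360-51483704, plus strand) stood at 48.3 and 52.7 CPM in Dnmt1 fl/fl and at 59.4 and 47.2 CPM in Dnmt1 KO, with the Dnmt1 KO replicates the other way round. Log2 fold changes were -0.06 ± 0.23 for Cbx1, 0.08 ± 0.22 for Cbx3 and -0.14 ± 0.35 for Cbx5. All 3 turned without Dnmt1 KO replicate 1, to 0.10, -0.10 and 0.25, and were -0.24, 0.23 and -0.69 without replicate 2. Of 100-base stretches of the Cbx3 transcript, 19.7% also occur among 6 other genes, of which Cbx3-ps6 shared the most, so its level is uncertain.

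The make-up of the HP1 pool was read as each gene's share of the 3 genes' summed CPM per kilobase. Scaling between libraries cannot move this ratio, but a trend with transcript length can. The transcripts of Cbx3, Cbx1 and Cbx5 have 1889, 2377 and 8803 bases. The median log2 difference, Dnmt1 KO replicate 2 minus replicate 1, was -0.38 for genes of 1000 to 2000 bases and 0.60 at 7000 to 10000. With the length correction Cbx5 stood at 27.9 and 29.4 CPM in Dnmt1 fl/fl and at 24.8 and 30.9 CPM in Dnmt1 KO. Cbx3 held the largest share in every sample, 57.6% and 62.2% in Dnmt1 fl/fl and 68.7% and 56.0% in Dnmt1 KO. Cbx1 held 34.2% and 30.6%, then 26.7% and 34.8%. Cbx5 held 8.23% and 7.25%, then 4.66% and 9.22%. In each of the 3 genes the Dnmt1 KO samples were the highest and the lowest of the 4, so the shares did not separate the genotypes. The share of Cbx5 depends on its transcript of 8803 bases, of which 573 are coding. Counted without division by length it held 27.6% and 25.1%, then 17.5% and 30.1%.

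**Figure D2:**
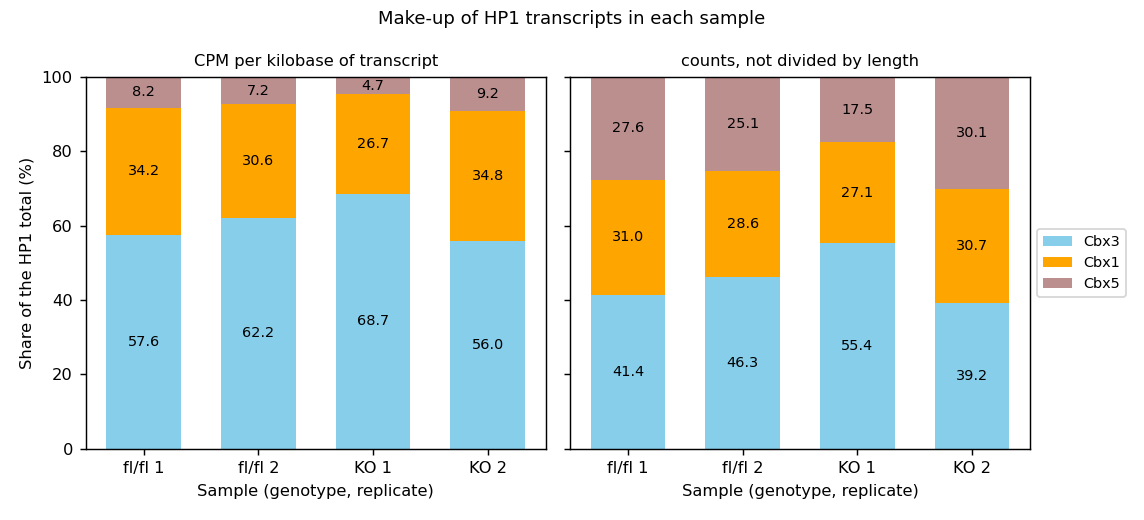
Share of Cbx3, Cbx1 and Cbx5 in the HP1 total of each sample (vertical axis, percent), by CPM per kilobase of transcript on the left and by counts not divided by length on the right. The share of Cbx5 is lowest in Dnmt1 KO replicate 1 and highest in Dnmt1 KO replicate 2 on both sides, with the controls between them, and Cbx3 shows the reverse.

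Atrx had the widest spread of the 10. It encodes an ATP-dependent remodeller that, with Daxx, places histone H3.3 at telomeres and repeats. Its values (chrX:105797615-105929403, minus strand) were 136 and 95.8 CPM in Dnmt1 fl/fl and 51.3 and 154 CPM in Dnmt1 KO, on 1016 to 3635 counts. The Dnmt1 KO replicates were 3.0-fold apart and lay beyond both controls on opposite sides, and the controls were 1.42-fold apart. Atrx was the 1 gene of the 10 with Dnmt1 KO replicates more than 2-fold apart, against 18.9% of all genes, and 0 of 10 had controls that far apart, against 5.53% of all genes. The log2 fold change was -0.18 ± 0.53, and the 95% interval ran from 0.357-fold to 2.20-fold. Both limma-voom and the replicate block put it at -0.36. Without Dnmt1 KO replicate 1 it turned to 0.41, and without replicate 2 it was -1.18 ± 0.25, with an adjusted p of 0.0203 (edgeR). Per kilobase, the ratio of Atrx to Trim28 was 0.509 and 0.343 in the controls, 0.136 in Dnmt1 KO replicate 1 and 0.575 in replicate 2.

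Smchd1, an SMC-related protein that maintains silencing on the inactive X chromosome and at imprinted clusters, had the lowest fitted value of the 10 with all 4 samples and no block, although Atrx was lower with the replicate block, limma-voom and the length correction. Smchd1 stood at 80.4 and 79.3 CPM in Dnmt1 fl/fl (chr17:71344489-71475343, minus strand) and at 57.4 and 81.1 CPM in Dnmt1 KO. One Dnmt1 KO sample lay under both controls and the other just above the higher control. The log2 fold change was -0.21 ± 0.25, with a 95% interval from 0.561-fold to 1.34-fold. It was 0.02 without Dnmt1 KO replicate 1, -0.48 without replicate 2 and -0.09 with the length correction.

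**Figure D3:**
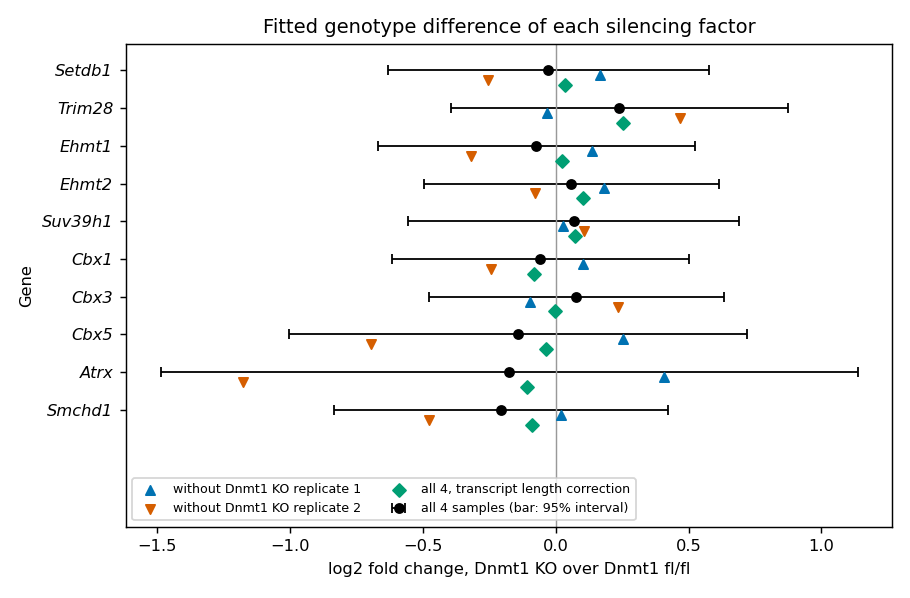
Fitted log2 fold change of each silencing factor, Dnmt1 KO over Dnmt1 fl/fl (horizontal axis), with all 4 samples and its 95% interval in black, without either Dnmt1 KO replicate as triangles, and after a transcript length correction as diamonds. Every interval crosses 0, and the triangles lie on opposite sides of 0 in 9 of the 10 genes, all but Suv39h1.

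Levels were compared between the 10 genes only per kilobase of the longest coding transcript, as means over the 2 Dnmt1 fl/fl samples. Ehmt2 was highest at 36.5 ± 1.09 CPM per kilobase (SD, n = 2). Cbx3 at 26.7 ± 1.64 and Trim28 at 26.6 ± 0.796 did not differ beyond their spread. Cbx1 at 14.5 ± 1.04 and Setdb1 at 13.7 ± 1.16 overlapped likewise, as did Smchd1 at 11.3 ± 0.118 and Atrx at 11.3 ± 2.78. Ehmt1 at 6.60 ± 0.370, Suv39h1 at 3.92 ± 0.233 and Cbx5 at 3.46 ± 0.287 followed. Their control values did not cross those of their neighbours, but Suv39h1 and Cbx5 came as near as 3.75 and 3.66. Over all 4 samples Suv39h1 and Cbx5 also overlapped, as did Atrx with Ehmt1 and Setdb1 with Smchd1. The order rests on the length used. By coding length the HP1 genes came first, with Cbx3 at 92.0, Cbx1 at 61.9 and Cbx5 at 53.1 CPM per coding kilobase, ahead of Ehmt2 at 38.8.

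The 10 genes shared an order of samples more than a difference between genotypes. In 7 of them (Setdb1, Ehmt1, Ehmt2, Cbx1, Cbx5, Atrx and Smchd1) the order was Dnmt1 KO replicate 2, Dnmt1 fl/fl replicate 1, Dnmt1 fl/fl replicate 2 and Dnmt1 KO replicate 1, from high to low, which 14.4% of all genes had. Dnmt1 KO replicate 1 was the lowest sample in those 7 of 10, against 39.6% of all genes. It was lowest with replicate 2 highest in the same 7, against 20.3%. The 39.6% is not matched for transcript length. That share was 30.7% for genes of 2000 to 3000 bases (as Cbx1) and 50.9% at 4000 to 5000 (Setdb1, Ehmt2). It was 61.3% at 5000 to 7000 (Ehmt1), 75.6% at 7000 to 10000 (Cbx5, Smchd1) and 76.6% above 10000 (Atrx). Trim28 and Cbx3 had exactly the reverse order, as did 14.1% of all genes. In 9 of 10 the Dnmt1 KO replicates were the 2 ends of the range, against 39.6% of all genes.

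The difference between the Dnmt1 KO replicates went with transcript length, over all genes and among the 10. The median log2 difference, Dnmt1 KO replicate 2 minus replicate 1, moved from -0.62 for genes with transcripts under 1000 bases to 0.85 for those over 10000 bases. The same median for the controls moved from 0.23 to -0.35. Across genes, Spearman's rho of length with the Dnmt1 KO difference was 0.416 over 12499 genes and 0.879 over the 10 silencing factors, which share the same 4 libraries and are not independent replicates. Against genes of like length, Atrx (10275 bases) had a larger difference than 86.3% of them, Cbx1 (2377 bases) than 76.4% and Cbx5 (8803 bases) than 73.1%, while Trim28 (3245 bases) had a larger one than 16.0%. The other 6 lay between 41.0% and 65.6%. Of the 10, 8 had a transcript longer than the median of 3111 bases over all genes. The part that transcript length, or the markers of other cells in Dnmt1 KO replicate 1, played in these values was not tested.

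**Figure D4:**
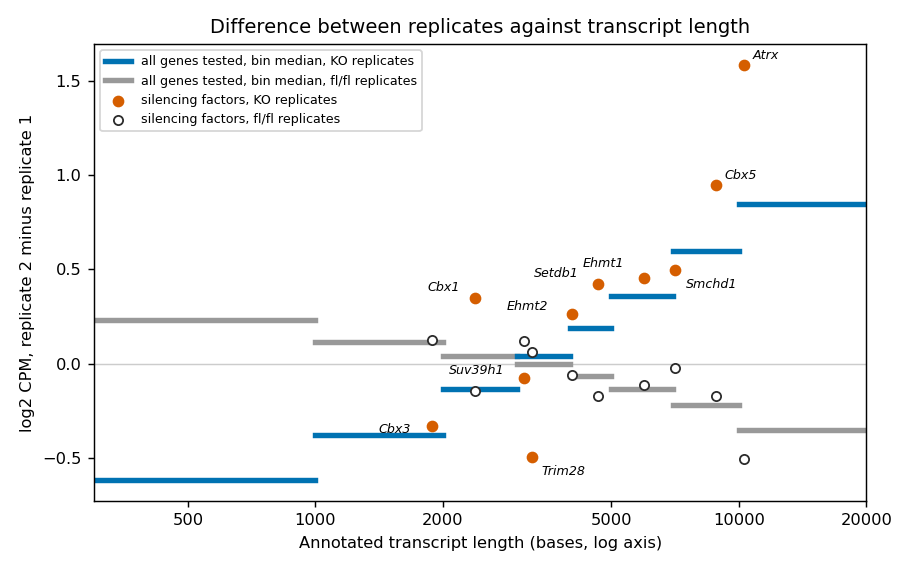
Log2 CPM difference, replicate 2 minus replicate 1 (vertical axis), against transcript length (log axis), for the 10 silencing factors as points and for all genes tested as the median of each length range. The blue medians of the Dnmt1 KO replicates go from -0.62 to 0.85, the grey medians of the Dnmt1 fl/fl replicates move from 0.23 to -0.35, and Atrx lies highest at 1.59.

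After removal of each library's trend with length, the median absolute log2 difference between the Dnmt1 KO replicates was 0.168 for the silencing factors, from 0.440, and 0.376 for all genes, from 0.484. The replicates of 8 of the 10 drew closer. Smchd1 stood at 71.9 and 80.5 CPM in Dnmt1 fl/fl and at 71.4 and 71.7 CPM in Dnmt1 KO on this corrected scale, where the replicates that had differed 1.41-fold were nearly equal. Atrx still had the widest range, 115 and 99.0 CPM against 70.7 and 128 CPM. Ehmt2 and Smchd1 then had genotypes that did not overlap, 2 of 10 against 18.9% of all genes, at log2 fold changes of 0.10 ± 0.17 and -0.09 ± 0.17. Setdb1 (0.04), Ehmt1 (0.02) and Cbx3 (-0.0043) changed direction, and all 10 adjusted p-values were 1.00 (edgeR).

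The direction of most of the 10 changed with the libraries used. Here the lone sample is assumed to vary as the others do. Without Dnmt1 fl/fl replicate 1, Setdb1 (0.06), Cbx1 (0.02) and Atrx (0.10) turned, so that 7 of 10 lay above 0 and 3 below. Without Dnmt1 KO replicate 1, 8 of 10 lay above 0 and 2 below, Trim28 and Cbx3. Dnmt1 KO replicate 2 was then outside the range of the controls for 9 of 10, against 64.6% of all genes, and 0 of 10 were called. Without Dnmt1 KO replicate 2, 7 of 10 lay below 0 and all 10 were outside the range of the controls, against 82.8% of all genes. Atrx was then the 1 factor called, where 8.32% of all genes were called. By unadjusted p, 4 of 10 passed 0.05, against 27.6% of all genes. Cbx5 came next, with an adjusted p of 0.0661 (edgeR).

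Another 30 genes, some for and some against silencing, were listed from the same pathways and read from the same fit. They were other H3K9 methyltransferases and cofactors, the HUSH complex that silences long repeats, ATRX partners, and the demethylases that erase the mark. The list had 31 symbols, since Tasor stood in it also as Fam208a, its older symbol, which the table does not use. None was called. With all 4 samples 10 lay above 0 and 20 below, beside the 50.9% and 49.1% of all genes, and the median log2 fold change was -0.07. That median turned to 0.08, with 17 above 0, without Dnmt1 KO replicate 1, and was -0.22 without replicate 2. In 1 gene both Dnmt1 KO samples were higher, against 8.14% of all genes, and in 2 both were lower, against 8.56%. Chaf1b, a subunit of the chromatin assembly factor that loads histones behind the replication fork, stood at 4.38 and 5.22 CPM in Dnmt1 fl/fl and at 8.94 and 5.38 CPM in Dnmt1 KO, so the separation of its lower Dnmt1 KO sample was small. Its log2 fold change was 0.57 ± 0.37, or 0.16 without Dnmt1 KO replicate 1, the library with the high value. That library was highest in 13 of the 18 cell division genes, though not in Mki67, Top2a, Aurkb, Ccnb1 or Cdk1. Over all genes, the commonest sample orders with that library highest held 14.1% and 9.4%. A link of Chaf1b to cell division was not tested. Mphosph8, the HUSH reader of methylated H3K9, stood at 19.3 and 18.7 CPM and at 16.0 and 17.1 CPM, a log2 fold change of -0.20 ± 0.22. Pphln1, a further HUSH subunit, stood at 36.0 and 39.9 CPM and at 32.3 and 33.0 CPM, a log2 fold change of -0.22 ± 0.20. All 3 adjusted p-values were 1.00 (edgeR).

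By group, the 4 HUSH genes tested all lay below 0, where 49.1% of all genes lay, with a median log2 fold change of -0.21. Dnmt1 KO replicate 1 was the lowest sample in all 4, as in 39.6% of all genes, and without it the median was -0.11, or -0.29 without replicate 2, values chosen for inspection after the data were seen. Tasor, the HUSH scaffold, named after its values were seen, stood at 60.2, 59.0 and 59.4 CPM in 3 samples and at 24.1 CPM in Dnmt1 KO replicate 1, and its log2 fold change without that library was -0.0065. The 6 methyltransferases and cofactors had a median of -0.05, with 2 above 0, and the 10 demethylases a median of -0.08, with 2 above 0. The 10 ATRX and heterochromatin partners had a median of 0.05, with 6 above 0. Without Dnmt1 KO replicate 1 all 3 of these medians changed sign, to 0.15, 0.12 and -0.13, and without replicate 2 they were -0.31, -0.23 and 0.24. Dnmt1 KO replicate 1 was the lowest sample in 18 of the 30, against 39.6% of all genes, a share not matched for transcript length. The 30 had a median transcript of 4620 bases, and that share was 50.9% for genes of 4000 to 5000 bases. Without Dnmt1 KO replicate 2, Kdm3b, Zfp644 and Tasor were called, 3 of 30 where 8.32% of all genes were, and without replicate 1 none was.

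**Figure D5:**
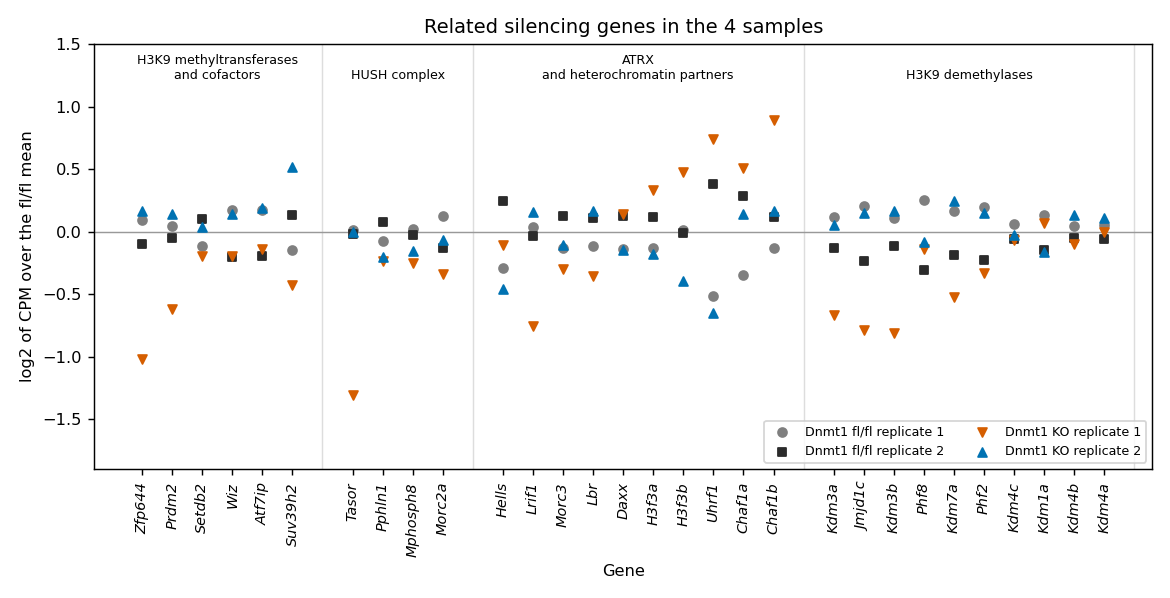
Log2 of CPM over the Dnmt1 fl/fl mean (vertical axis) in each of the 4 samples for the 30 related genes, grouped by role. The inverted triangles of Dnmt1 KO replicate 1 reach the lowest values, among them Tasor, and Chaf1b is the 1 gene in which both Dnmt1 KO points lie above both Dnmt1 fl/fl points.

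Of 15 germline genes that DNA methylation keeps silent in somatic cells, 3 are listed in the table and 0 passed the filter on low counts. Their summed level was 0.926 and 1.12 CPM in Dnmt1 fl/fl and 0.404 and 1.57 CPM in Dnmt1 KO, where 3 counts in a sample correspond to 0.120 to 0.151 CPM. The table lists only genes above 0 in all 4 samples, so a germline gene read in one genotype alone would not be in it.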

How the data were processed

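Total RNA of 4 peritoneal macrophage samples, 2 per genotype, was sequenced as paired-end libraries. The authors deposited estimated counts per gene, not normalized; the submitters' processing notes name HISAT2 2.0.5, featureCounts 1.5.0-p3, DESeq2 1.20.0 and mm10, and why some counts are not whole is not given in the sources used here. Between 72.6% and 76.4% of values per sample were exactly whole as deposited, with no tolerance, so that a value 0.01 off counted as not whole. A shorter deposited table of 2749 genes repeated values of the whole table unchanged and was used for no result. The 10 silencing factors, the related genes and the marker lists were all chosen by known function, but with earlier results of these data known.

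Counts were rounded, filtered with filterByExpr (12542 genes kept), scaled by TMM and compared with edgeR 4.0.16 (R 4.3.3) by its two-sided quasi-likelihood F-test, adjusted over all genes kept (Benjamini-Hochberg). The fit was first run on simulated counts. These held no trend with transcript length and no outlying library, so that run does not cover either feature. The coefficient of variation between replicates was 28.9%. The 10 silencing factors and Dnmt1 were named in full, with those related genes whose genotypes did not overlap, and of the marker lists the genes a range turns on. Also tried were limma-voom (limma 3.58.1), DESeq2 1.42.0, RLE factors, library totals alone, no filter, at least 10 counts in every sample, a replicate block, leaving out each sample, and removal of each library's loess trend (span 0.5) of log2 CPM against transcript length. Lengths and positions are from GENCODE M21 on GRCm38, for the longest transcript with a coding sequence, matched by symbol for 99.5% of genes. Promoters are from RefSeq on GRCm38.p6. Totals were 20228071 to 24198943 counts. The floor of 3 counts was 0.120 to 0.151 CPM on TMM-scaled library sizes, which covers counting error only. Python 3.11.15 with SciPy 1.17.1 was used for the rest.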

Additional observations from a re-analysis of the deposited data

How the results depend on the processing

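With all 4 samples, 0 of the 10 silencing factors and 0 of the 30 related genes passed an adjusted p of 0.05, whichever fit was used. Over all genes, edgeR gave 0 calls and 35 genes at an unadjusted p under 0.05, DESeq2 gave 1 call and 39, limma-voom 0 and 40, edgeR without a filter 0 and 60, and the length correction 0 and 52. The labels number the samples but nothing says that a number marks a shared litter or day, and deviations of same-numbered samples correlated at -0.35 over genes; with the replicate block 0 genes were called and 34 had an unadjusted p under 0.05, the median of the silencing factors was -0.05, and the block changed no call. A crossed pairing, added after seeing the data, called 3 genes and put 297 at an unadjusted p under 0.05, and 0 and 123 with the length correction. With the length correction 2 silencing factors had genotypes that did not overlap, alone, with the replicate block or with the crossed pairing, and directions turned for Setdb1 (0.035, 0.033 with the replicate block, 0.033 crossed), Ehmt1 (0.023 in each) and Cbx3 (-0.0043, -0.0047 with the replicate block, -0.0046 crossed). With library totals alone Ehmt2 (-0.0033), Suv39h1 (-0.0060) and Cbx3 (-0.0048) turned, and the median of all genes moved to -0.06. Without division by length the HP1 shares in Dnmt1 fl/fl were 29.8% for Cbx1, 43.8% for Cbx3 and 26.4% for Cbx5, and in Dnmt1 KO 47.3% for Cbx3 and 23.8% for Cbx5. Leaving out one sample at a time gave 0 to 1061 called genes, 0 to 1 called silencing factors, 0 to 3 called related genes, 0 to 10 silencing factors outside the other genotype's range and a median of -0.25 to 0.12 for them. Ranges of log2 fold change were -0.25 to 0.17 for Setdb1, -0.034 to 0.47 for Trim28, -0.32 to 0.13 for Ehmt1, -0.080 to 0.18 for Ehmt2, 0.0092 to 0.13 for Suv39h1, -0.24 to 0.10 for Cbx1, -0.10 to 0.23 for Cbx3, -0.69 to 0.25 for Cbx5, -1.18 to 0.41 for Atrx, -0.48 to 0.020 for Smchd1 and -1.12 to -0.75 for Dnmt1. Under limma-voom, as under the replicate block, Atrx moved from -0.18 to -0.36 and was not called. The cause of these shifts was not tested. The median standard error of the silencing factors, 0.246 on the log2 scale, limits what 2 samples per genotype can show.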
